A study of Mus musculus with 6 samples.

Results

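Cardiac fibroblast marker genes are transcripts enriched in the resident connective-tissue cells of the heart, although some, such as Gsn, are also made by its muscle cells. The 10 genes described here, Pdgfra, Tcf21, Dcn, Lum, Gsn, Mfap5, Pi16, Ddr2, Dpt and Fn1, were taken by name as markers other than collagens, out of 78409 genes in the deposited table. Each name matched 1 row, and all 10 passed the filter on low values. Each library was 1 heart of a mouse aged 11 months: 3 mice carried a knockout of Ybx1 specific to cardiomyocytes, and 3 were littermate controls. The labels give the second group's genotype as control only. Neither the alleles nor the promoter that drives the deletion is named in the labels used here. By its label the deletion is limited to cardiomyocytes, so the fibroblasts of a knockout heart are cells in which the gene was not targeted. The comparison asks which transcripts of the heart, here those of fibroblasts, differ when the muscle cells lack the gene.

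Fibroblasts lie between the muscle fibres, and most of those in the ventricle derive from the epicardium. They make and turn over the fibrillar matrix that transmits force, sense collagen and growth factors through receptor tyrosine kinases, and in injured hearts can become matrix-secreting myofibroblasts. Ybx1 encodes a cold-shock-domain protein that binds RNA and DNA and was named after the Y-box, an inverted CCAAT sequence in promoters.

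Promoter sequences credited to RefSeq (GRCm38.p6) were matched here for 6 of the 10 genes, namely Pdgfra, Tcf21, Gsn, Pi16, Ddr2 and Dpt, in 8 windows of 300 bases around annotated start sites. Those of Dcn, Lum, Mfap5 and Fn1 were not analysed here. Shown are the window of Tcf21, the member with the widest spread between hearts, and 1 of 3 windows of Gsn, the most abundant member, because both were highest in the same heart. Of the Gsn windows the one with the most CCAAT copies was chosen, after the motifs were counted. Each line runs 5′ to 3′ on the gene's strand, and capitals mark any CCAAT core, any TATAAA box and any CAGCTG on either strand.
Tcf21 promoter (chr10:22820094-22820393, minus strand): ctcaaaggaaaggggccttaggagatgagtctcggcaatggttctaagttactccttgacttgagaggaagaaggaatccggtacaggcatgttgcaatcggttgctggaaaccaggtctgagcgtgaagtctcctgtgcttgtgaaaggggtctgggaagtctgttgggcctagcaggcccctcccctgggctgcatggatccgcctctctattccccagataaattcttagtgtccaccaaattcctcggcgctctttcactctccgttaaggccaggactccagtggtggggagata
Gsn promoter (chr2:35282130-35282429, plus strand): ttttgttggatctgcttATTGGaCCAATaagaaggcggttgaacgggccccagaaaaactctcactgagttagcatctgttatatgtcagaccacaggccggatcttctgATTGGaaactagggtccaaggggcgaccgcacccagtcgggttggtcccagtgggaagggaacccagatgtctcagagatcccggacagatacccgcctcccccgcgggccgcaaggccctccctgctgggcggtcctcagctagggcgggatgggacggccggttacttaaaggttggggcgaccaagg
CCAAT is the core of the Y-box, TATAAA is a TATA box, and CAGCTG is an E-box of the kind that basic helix-loop-helix factors such as Tcf21 bind. The Tcf21 window held none of the 3 motifs. This Gsn window held 3 copies of CCAAT, read on either strand, and none of the other motifs. Of the 2 Gsn windows not shown, one held 0 and the other 1 copy of CCAAT, and each held 1 CAGCTG. No copy overlapped a copy of another motif in either window. Over the members, CCAAT lay in windows of 2 of the 6 genes (Gsn and Pi16), TATAAA in 2 (Ddr2 and Dpt) and CAGCTG in 3 (Gsn, Pi16 and Dpt). Counted by window, 3 of the 8 held CCAAT, 2 TATAAA and 4 CAGCTG. Of all 32851 windows of this length, 37.4% held CCAAT, 13.6% TATAAA and 16.3% CAGCTG. These matches describe letters in a window and are not evidence of binding.

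Total counts were 12270796 to 15141525 per library. Ybx1 was at 851, 813 and 898 normalised CPM (counts per 1000000 counts, after scaling between libraries) in control hearts 1, 2 and 3. It was at 203, 172 and 110.01 in knockout hearts 1, 2 and 3, all below every control (log2 fold change -2.40, SE 0.27, edgeR adjusted p = 0.148 over 13717 genes). Knockout heart 3 stood apart in composition. Mitochondrial rRNA took 10.7% of its counts against 20.5% to 26.3% in the other 5, and the nuclear RNA Malat1 was at 668 deposited CPM against 3317 to 7923. Results that rest on this heart are therefore given with and without it.

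No fibroblast marker gene passed the test. Of the 10, 8 had a log2 fold change above 0 and 2, Pi16 and Ddr2, below it, with a median of 0.24 against 0.011 over all tested genes. In the same fit 51.1% of all tested genes lay above 0. With library totals in place of scaling factors the median of all genes moved to 0.17 and that of the members to 0.40, and Pi16 and Ddr2 then lay above 0. Over all 13717 genes edgeR's quasi-likelihood test called 0 genes at an adjusted p of 0.05 (0%), while 705 genes (5.14%) had an unadjusted p below 0.05, none of them a member. DESeq2 called 15 genes (0.109%), also no member. By other settings, limma-trend on log2(CPM + 1) called 1 gene (0.00729%), a fit with heart number as a block 5 (0.0365%), edgeR without a filter 133 (0.400%) and edgeR without knockout heart 3 called 1 (0.00741%), again no member. In 801 genes (5.84%) all 3 knockout values lay below the controls and in 862 (6.28%) above, and the groups overlapped in all 10 members. Without knockout heart 3 the members split evenly, 5 above and 5 below 0, with a median of 0.0065. The median was 0.16 without control heart 2 and 0.14 without knockout heart 1. In bulk tissue fewer cells of a type and less RNA per cell cannot be told apart, so none of these levels is a count of fibroblasts.

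**Figure D1:**
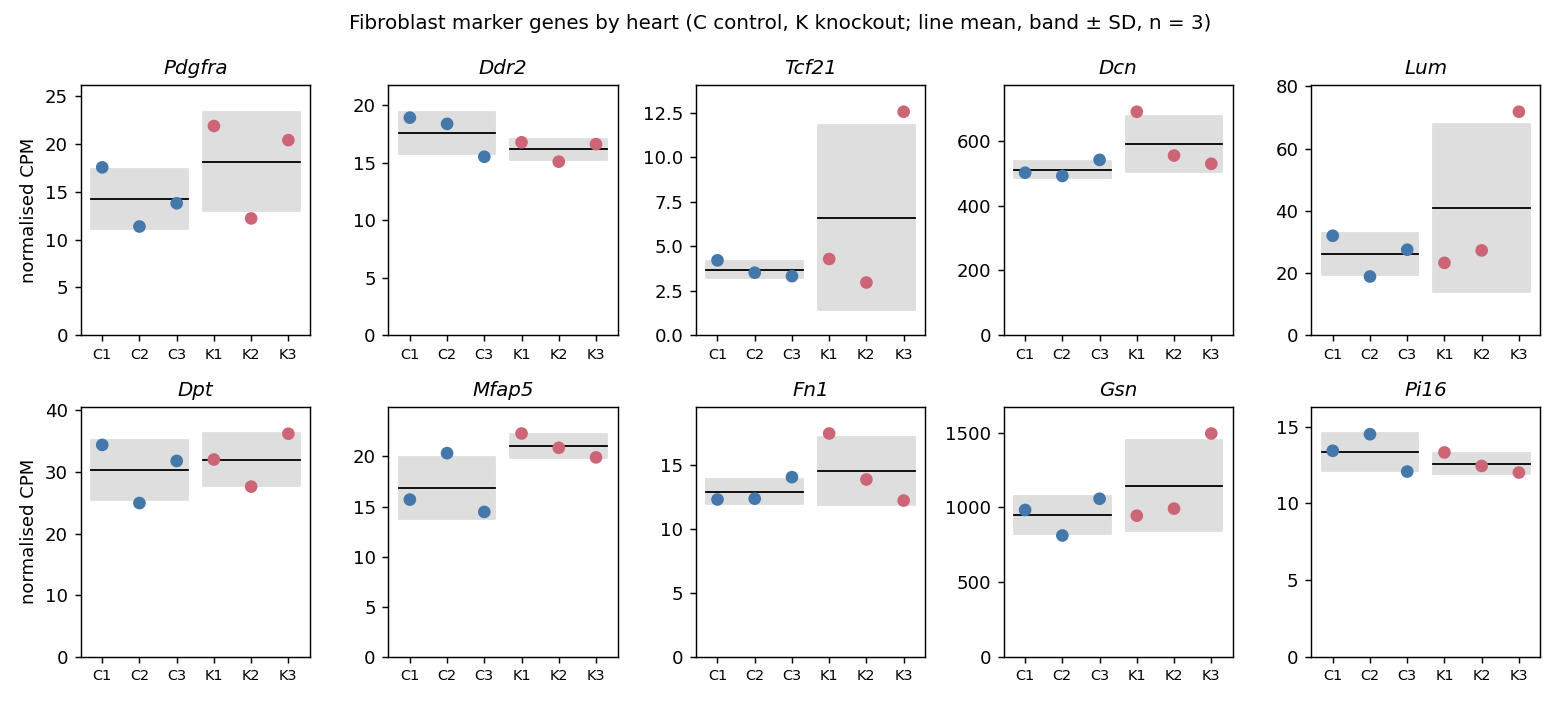
Normalised CPM (y axis, from 0, a separate scale for each gene) of the 10 fibroblast marker genes in each heart, with the mean as a line and ± SD as a band (n = 3). Control and knockout points overlap in every panel, and Tcf21 and Lum each have 1 high point, knockout heart 3, at 12.6 and 71.8 CPM.

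The 2 receptor tyrosine kinases among the markers gave values on either side of 0. Pdgfra (ENSMUSG00000029231), the receptor for platelet-derived growth factors that marks fibroblasts across the mouse heart, was at 17.6, 11.4 and 13.8 CPM in control hearts 1, 2 and 3. In the knockout hearts, in the same order, it was at 21.9, 12.2 and 20.4 CPM. Knockout hearts 1 and 3 lay above every control, and knockout heart 2 lay inside the control range. The means were 14.2 ± 3.12 and 18.2 ± 5.21 CPM (SD, n = 3 each), a log2 fold change of 0.35 (SE 0.27, 95% confidence interval -0.25 to 0.96, edgeR adjusted p = 0.698). Leaving out knockout heart 2 raised it to 0.56, and leaving out knockout heart 1 lowered it to 0.19. Ddr2 (ENSMUSG00000026674), a receptor for fibrillar collagen, was at 18.9, 18.4 and 15.5 CPM in controls and 16.8, 15.1 and 16.6 CPM in knockout hearts. These 6 values formed a narrow band in which the groups overlapped. The log2 fold change was -0.12 (SE 0.17, interval -0.52 to 0.27, edgeR adjusted p = 0.797).

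Tcf21 (ENSMUSG00000045680), a basic helix-loop-helix transcription factor needed for the formation of cardiac fibroblasts in the mouse, had the widest spread. It was at 4.21, 3.51 and 3.32 CPM in controls, and knockout hearts 1, 2 and 3 had 4.28, 2.96 and 12.6 CPM. The first knockout heart lay just above and the second below the control range, and only the third was far from it. The fitted log2 fold change of 0.86 (SE 0.49, interval -0.26 to 1.98, edgeR adjusted p = 0.694) became -0.014 (interval -0.62 to 0.59) without that heart. Counts behind these levels were 38 to 63 in the other 5 hearts and 226 in knockout heart 3. An antisense gene, Gm10824, overlaps Tcf21 in GENCODE M21. Without a stated strand setting, reads from the 2 genes cannot be told apart and the level of Tcf21 is uncertain to that extent. The deposited table gives Gm10824 at most 8 counts in any heart. Genes on the opposite strand also overlap Pdgfra, Pi16, Ddr2, Dpt and Fn1, with the same limit. Those at Pi16 and Dpt were not found by name in the deposited table. Those at Pdgfra, Ddr2 and Fn1 had at most 8 counts in any heart.

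Among the matrix genes, the collagen-binding proteoglycans Dcn and Lum behaved differently from each other across hearts. Dcn (ENSMUSG00000019929), decorin, was at 502, 492 and 542 CPM in controls and 691, 555 and 529.7 CPM in knockout hearts. Knockout hearts 1 and 2 lay above the controls and knockout heart 3 between them. Its means were 512 ± 26.3 and 592 ± 86.5 CPM (SD, n = 3 each), a log2 fold change of 0.21 (SE 0.20, interval -0.25 to 0.67, edgeR adjusted p = 0.723). Without knockout heart 1 it was 0.080. Lum (ENSMUSG00000036446), lumican, was at 32.0, 18.8 and 27.5 CPM in controls and 23.2, 27.2 and 71.8 CPM in knockout hearts. Knockout hearts 1 and 2 lay inside the control range and knockout heart 3 far above it. The log2 fold change was 0.65 (SE 0.42, interval -0.31 to 1.603, edgeR adjusted p = 0.694), and -0.049 without knockout heart 3. Dpt (ENSMUSG00000026574), dermatopontin, a small matrix protein that binds decorin, was at 34.4, 24.9 and 31.8 CPM in controls and 32.0, 27.6 and 36.2 CPM in knockout hearts. These ranges overlapped almost wholly (log2 fold change 0.073, interval -0.38 to 0.52, edgeR adjusted p = 0.900), and the sign turned without control heart 2 (-0.065) or knockout heart 3 (-0.026).

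Mfap5 and Fn1, 2 genes of the fibrillar scaffold, had, like Dcn, a log2 fold change that was no smaller without knockout heart 3. Mfap5 (ENSMUSG00000030116), which encodes a glycoprotein of elastic microfibrils, was at 15.7, 20.3 and 14.5 CPM in controls and 22.3, 20.9 and 19.9 CPM in knockout hearts. Knockout heart 3 lay just below control heart 2, and the other values did not cross. The means were 16.8 ± 3.09 and 21.0 ± 1.20 CPM (SD, n = 3 each), a log2 fold change of 0.32 (SE 0.19, interval -0.11 to 0.76, edgeR adjusted p = 0.694, exact two-sided permutation p = 0.2). Without knockout heart 3 it was 0.36. On the deposited CPM, with no scaling between libraries, the groups did not overlap, with 15.8, 16.3 and 15.01 CPM in controls and 24.4, 18.8 and 23.6 CPM in knockout hearts. On that scale 5.22% of all tested genes had all 3 knockout values above the controls. Fn1 (ENSMUSG00000026193), fibronectin, was at 12.3, 12.4 and 14.1 CPM in controls and 17.5, 13.9 and 12.2 CPM in knockout hearts. Only knockout heart 1 exceeded the controls, and the third was the lowest of all 6. The log2 fold change was 0.17 (SE 0.20, interval -0.28 to 0.61, edgeR adjusted p = 0.763), 0.28 without knockout heart 3 and 0.0095 without knockout heart 1.

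Gsn (ENSMUSG00000026879) encodes gelsolin, which severs and caps actin filaments inside cells and is also secreted. It was at 983, 812 and 1058 CPM in controls and 944, 992 and 1494 CPM in knockout hearts. Knockout hearts 1 and 2 lay inside the control range and knockout heart 3 above it. The log2 fold change was 0.27 (SE 0.25, interval -0.31 to 0.84, edgeR adjusted p = 0.717) and was 0.027 without knockout heart 3. Pi16 (ENSMUSG00000024011), a secreted peptidase inhibitor of the CAP family that marks a fibroblast population shared by many mouse tissues, was the steadiest member. Its levels were 13.4, 14.5 and 12.1 CPM in controls and 13.3, 12.4 and 12.01 CPM in knockout hearts. The groups overlapped, with the lowest value in knockout heart 3 (log2 fold change -0.082, SE 0.17, interval -0.47 to 0.31, edgeR adjusted p = 0.867).

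**Figure D2:**
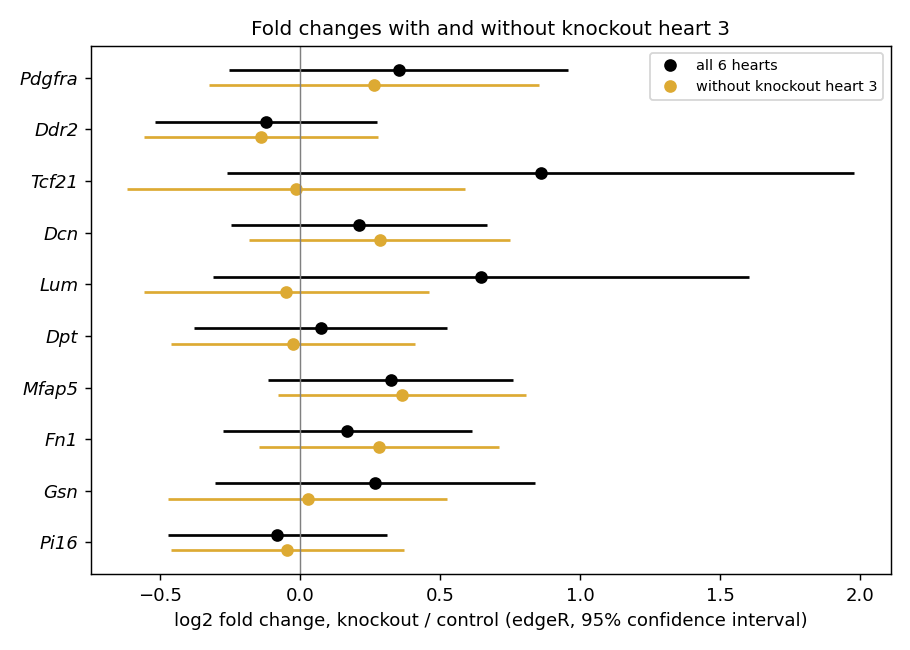
Log2 fold change of each fibroblast marker gene, knockout relative to control (x axis), with edgeR's 95% confidence interval, for all 6 hearts (black) and for the 5 hearts without knockout heart 3 (yellow). All intervals include 0, and Tcf21, Lum and Gsn move to between -0.049 and 0.027 when knockout heart 3 is left out.

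The precision of these comparisons can be read from the intervals. For 8 of the 10 genes the 95% interval lay within 2-fold either way, against 63.5% of all tested genes, and the exceptions were Tcf21 and Lum. With 3 against 3 hearts the exact two-sided permutation test cannot go below 0.1. It gave 0.2 for Dcn and Mfap5 and 0.3 to 0.7 for the other 8 genes. Member counts per library ranged from 38 for Tcf21 to 26876 for Gsn.

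Levels per length put gelsolin and decorin far above the rest. Dividing normalised CPM by the length of all annotated exons (GENCODE M21) gave 301 ± 39.9 CPM per kb for Gsn in control hearts and 87.7 ± 4.50 for Dcn (SD, n = 3). Dpt followed at 17.6 ± 2.83, Lum at 10.7 ± 2.72 and Mfap5 at 4.69 ± 0.862 CPM per kb. Each of these 5 genes exceeded the next in every control heart's range, without overlap. Pi16 (2.095), Ddr2 (1.90), Tcf21 (1.57), Pdgfra (1.42) and Fn1 (1.11 CPM per kb) closed the order, and each neighbour in this group overlapped the next between control hearts. In knockout hearts the first 5 places were the same, while Tcf21 moved from place 8 to place 6 on the mean that knockout heart 3 raised.

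Because Gsn and Dcn made up 90.9% to 92.4% of the summed normalised CPM of the 10 genes, the sum mostly follows these 2. It was 1633, 1428 and 1732 CPM in control hearts and 1786, 1679 and 2226 CPM in knockout hearts 1, 2 and 3. Knockout hearts 1 and 3 lay above the controls and knockout heart 2 within them. The mean of the knockout hearts was 1.19 times that of the controls, and 1.08 times without knockout heart 3. The 8 genes other than Gsn and Dcn summed to 148, 124 and 132 CPM in controls and 151, 132 and 202 CPM in knockout hearts, a ratio of 1.20, or 1.05 without knockout heart 3.

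The members did not move as a block. Knockout heart 1 held the highest value of Pdgfra, Dcn, Mfap5 and Fn1, and knockout heart 3 that of Tcf21, Lum, Gsn and Dpt. Control heart 2 held the lowest value of Pdgfra, Dcn, Lum, Gsn and Dpt. Compared as profiles centred on each gene's mean over the 6 hearts, the closest pair was Dcn and Fn1 (root mean square distance 0.05 on the log2 scale). Pi16 and Ddr2 came next (0.07), then Gsn and Dpt (0.18). The farthest pair was Tcf21 and Fn1 (0.71). This distance is not scaled to how much a gene varies, so genes that vary little between hearts, such as Pi16 and Ddr2, lie close by it.

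**Figure D3:**
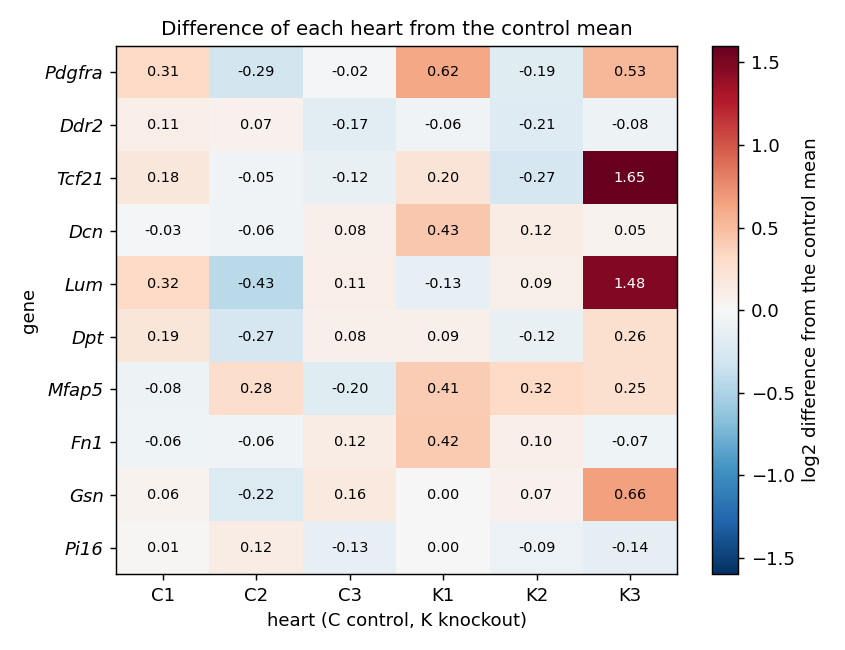
Log2 difference of each heart (columns) from the control mean for each fibroblast marker gene (rows), in normalised CPM plus a pseudocount of 0.5, with the value printed in each cell. Knockout heart 3 is at 1.65 for Tcf21 and 1.48 for Lum, while it is at -0.14 for Pi16 and -0.07 for Fn1.

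Knockout heart 3 differed from the controls also by transcript length, in a comparison chosen after its values were seen. Among tested genes with exons of under 3 kb in all, 4307 genes, its median log2 difference from the control mean was 0.19. It was 0.04 for the 4824 genes of 3 to 6 kb and -0.19 for the 4055 longer genes. In the other 5 hearts the corresponding medians ranged from -0.08 to 0.07, and a smaller trend with length was seen there too. From short to long they fell in control heart 3 (0.056, 0.008 and -0.072), in knockout heart 2 (0.075, 0.004 and -0.084) and slightly in control heart 1. They rose in control heart 2 (-0.076, -0.015 and 0.073) and slightly in knockout heart 1. Tcf21, Lum and Dpt belong to the short class, Dcn, Gsn and Mfap5 to the middle one, and Pdgfra, Pi16, Ddr2 and Fn1 to the long one. The 2 members with the largest difference, Tcf21 and Lum at 1.65 and 1.48, have 2.35 and 2.45 kb of exon. Dpt, with 1.72 kb, was at 0.26, near the median of its class. Of all tested genes, 99.5% had a lower difference than Tcf21 in that heart, 99.04% than Lum and 84.5% than Gsn. The part of length or RNA composition in these values was not tested.

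**Figure D4:**
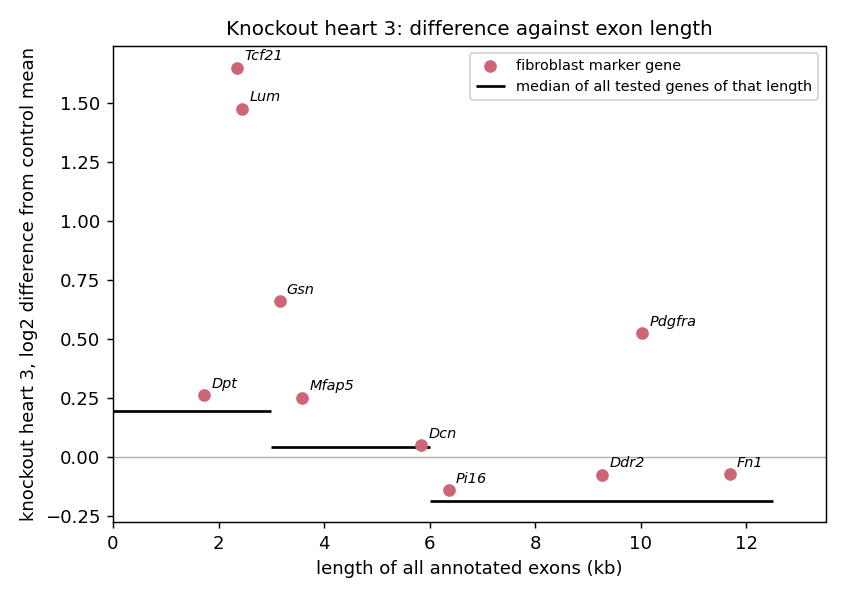
Log2 difference of knockout heart 3 from the control mean (y axis) against the length of all annotated exons in kb (x axis) for the 10 fibroblast marker genes, with the median of all tested genes in 3 length classes as lines. The class medians fall from 0.19 through 0.04 to -0.19, and Tcf21 and Lum lie far above the line of the short class.

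Further genes of the pathways around these markers gave no call. All 7 platelet-derived growth factor ligands and receptors were tested, and 0 passed in either direction (median log2 fold change 0.02, with Pdgfra included, and -0.089 to 0.085 when 1 library was left out). The ligand Pdgfc was at 0.890, 0.277 and 0.995 CPM in controls and 0.747, 1.90 and 2.61 CPM in knockout hearts. Knockout hearts 2 and 3 thus lay above the controls and knockout heart 1 within them. Pdgfc rested on few reads, with 11, 3 and 15 counts in controls and 11, 25 and 47 in knockout hearts. Of 17 small leucine-rich proteoglycans 9 were tested, 5 above and 4 below 0, and 0 passed. Ecm2, a matrix protein of this family, was at 9.14, 8.87 and 8.56 CPM in controls and 10.9, 9.22 and 11.6 CPM in knockout hearts, without overlap. Prelp, which anchors collagen to basement membranes, was at 10.5, 8.87 and 11.6 CPM in controls and 13.1, 11.1 and 15.01 CPM in knockout hearts, with overlap. Podn, podocan, lay the other way at 4.37, 5.54 and 3.78 CPM in controls and 4.89, 2.73 and 1.06 CPM in knockout hearts, also with overlap. In 1 tested gene of the list, Ecm2, all knockout values lay above the controls and in 1, Aspn (asporin), below (log2 fold change -0.10), against 6.28% and 5.84% of all tested genes. Kera, keratocan, had 0 counts in all 6 hearts.

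Scaffold and receptor lists were similar in this respect. Of 16 elastic microfibril genes, all tested, 9 lay above and 7 below 0 and 0 passed. Fbln5, a fibulin needed for elastic fibre assembly, was at 7.52, 5.64 and 8.42 CPM in controls and 10.8, 8.65 and 15.4 CPM in knockout hearts, without overlap (edgeR adjusted p = 0.694). Of 13 fibronectin receptors and partners, Fn1 included, 9 lay above and 4 below 0 and 0 passed. Sdc4, a syndecan that cooperates with integrins in binding fibronectin, was at 24.2, 15.4 and 25.5 CPM in controls and 37.5, 29.6 and 34.5 CPM in knockout hearts. All 3 knockout values of Sdc4 exceeded the controls, and so did those of the integrin chain Itgb5. Those of another integrin chain, Itga4, lay below, at 0.951, 0.607 and 0.778 CPM against 0.971, 1.85 and 0.995 CPM in controls. Itga4 rested on few reads, with 12, 20 and 15 counts in controls and 14, 8 and 14 in knockout hearts. Over all tested genes 6.28% lay wholly above and 5.84% wholly below. Among 5 tested discoidin and other collagen receptors 1 lay above and 4 below 0, and among 11 tested gelsolin-family and other actin-severing or capping genes 8 above and 3 below, with 0 past the test in both.

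The signalling and transcription factor lists also had 0 members past the test. Of 18 TGF-beta ligands, receptors and SMADs, all tested, 10 lay above and 8 below 0. Smad3, which carries the TGF-beta signal to the nucleus, was at 3.15, 2.22 and 3.25 CPM in controls and 4.55, 4.48 and 6.67 CPM in knockout hearts. Of 15 tested fibroblast transcription factors, Tcf21 included, 8 lay above and 7 below 0. Their median log2 fold change was 0.15, and -0.014 without knockout heart 3. Twist1, a basic helix-loop-helix factor of mesenchymal cells, was at 1.05, 0.924 and 1.72 CPM in controls and 2.85, 2.88 and 2.39 CPM in knockout hearts. Twist1 rested on few reads, with 13, 10 and 26 counts in controls and 42, 38 and 43 in knockout hearts. Gata4, a zinc-finger factor of cardiac muscle and mesenchyme, was at 9.30, 5.82 and 9.75 CPM in controls and 7.81, 10.2 and 23.02 CPM in knockout hearts, where only hearts 2 and 3 exceeded the controls. The knockout values of Smad3 and Twist1 did not overlap the controls, and edgeR's adjusted p was 0.694 for each of the 3 genes. Wholly above the controls lay 2 of the 18 TGF-beta genes and 2 of the 15 transcription factors. In both lists 0 lay wholly below. Over all tested genes the shares were 6.28% above and 5.84% below.

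Other fibroblast lists had medians above 0 with all 6 hearts, and each median moved when 1 library was left out. Of 20 further resident fibroblast genes, all tested, 15 lay above and 5 below 0 with a median log2 fold change of 0.24, and 0 passed. The median was 0.13 without knockout heart 3 and 0.10 without control heart 2. Their summed level was 694, 517 and 647 CPM in controls and 795, 618 and 844 CPM in knockout hearts, low again in control heart 2. Loxl1, an enzyme that crosslinks elastin, was at 27.5, 19.96 and 26.1 CPM in controls and 39.1, 29.3 and 34.4 CPM in knockout hearts, without overlap. Serping1 was at 36.1, 29.2 and 43.9 CPM in controls and 53.1, 46.5 and 85.6 CPM in knockout hearts, also without overlap. This held for 2 of the 20 genes, with 0 wholly below the controls, against 6.28% and 5.84% of all tested genes. The universal fibroblast list that accompanies Pi16 and Dpt in mouse tissues had 9 of 11 tested genes above 0, a median of 0.12 and a sum of 162 to 201 CPM in controls and 162 to 219 CPM in knockout hearts. Its median was 0.40 without control heart 1, 0.031 without control heart 2, 0.0039 without knockout heart 1, 0.23 without knockout heart 2 and 0.098 without knockout heart 3. The activated fibroblast and myofibroblast list had 10 of 15 above 0 and a median of 0.22. This median was 0.41 without knockout heart 3, 0.11 without knockout heart 2, 0.13 without control heart 1 and -0.037, on the other side of 0, without knockout heart 1. Its sum was 182, 158 and 188 CPM in controls and 235, 191 and 139 CPM in knockout hearts, so that knockout heart 3, the highest in the sum of the 10 markers, was the lowest here. Fap, a membrane protease of activated fibroblasts, was at 2.51, 4.34 and 3.12 CPM in controls and 2.24, 2.28 and 1.72 CPM in knockout hearts, all below the controls. Tnc, tenascin C, also lay wholly below, so this held for 2 of the 15 genes, and 0 lay wholly above, against 5.84% and 6.28% of all tested genes. Tnc rested on few reads, with 14, 12 and 17 counts in controls and 15, 9 and 15 in knockout hearts. Sfrp2, a secreted Wnt modulator, and Ddah1, an enzyme that degrades methylated arginine, lay the other way, with log2 fold changes of 1.10 and 0.78 and overlapping groups. Sfrp2 also rested on few reads, with 11, 7 and 20 counts in controls and 41, 11 and 47 in knockout hearts. By edgeR the adjusted p was 0.694 for Fap, Sfrp2 and Ddah1.

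Markers of other heart cells moved between the same libraries, and their part in the fibroblast values was not tested. None of these lists had a gene past the test. In the macrophage and monocyte list 10 of 11 tested genes lay above 0, against 51.1% of all tested genes. Its median log2 fold change was 0.37, and 0.19 without knockout heart 3. The sum was 116 to 151 CPM in controls and 151 to 214 CPM in knockout hearts, highest in knockout heart 3. The 10 endothelial genes split 5 and 5, with a sum of 592 to 793 CPM in controls and 405 to 863 CPM in knockout hearts, lowest in knockout heart 3. Of 11 smooth muscle and pericyte genes 2 lay above and 9 below 0, with sums of 602 to 740.4 and 517 to 792 CPM. Their median log2 fold change was -0.15, -0.0070 without knockout heart 3 and -0.41 without knockout heart 1. Of the 12 cardiomyocyte genes 5 lay above and 7 below 0, with a median of -0.21 (-0.14 without knockout heart 3 and -0.12 without knockout heart 1). They summed to 27854 to 33028 CPM in controls and 23379 to 30171 CPM in knockout hearts. In 4 of these 12 genes, Myh6, Myh7, Ttn and Ryr2, all 3 knockout values lay below the controls, and in 0 above, against 5.84% and 6.28% of all tested genes. Levels of Myh6, which encodes a cardiac myosin heavy chain, were 5010.5 to 6054 CPM in controls and 2807 to 3943 CPM in knockout hearts. The log2 fold changes of Pln (0.69), Atp2a2 (0.46), Actc1 (0.32), Myl3 (0.19) and Tnni3 (0.049) were above 0, with overlapping groups. Of these, Pln, Atp2a2, Actc1 and Myl3 were highest in knockout heart 3, and their fold changes are not given without that heart.

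Most genes of the epicardial, adipocyte and Schwann lists did not pass the filter on low values. In the epicardial and mesothelial list 2 of 10 genes were tested, the sum was 5.72 to 7.18 CPM in controls and 3.56 to 8.46 CPM in knockout hearts, and Msln, mesothelin, was at 0 in 5 of the 6 hearts. In the adipocyte list Adipoq, adiponectin, reached at most 0.80 CPM, while the sum of 818 to 1146 CPM in controls and 586 to 1364 CPM in knockout hearts was almost wholly Fabp4, which capillary endothelium also expresses. Of 10 Schwann and neuronal genes 3 were tested, all below 0, with sums of 15.2 to 26.7 and 10.01 to 15.1 CPM, and Th had 0 counts in every heart. In the valve interstitial list, which shares Dcn with the 10 markers, the 7 tested genes had a median log2 fold change of 0.32, 0.18 without control heart 1, 0.19 without knockout heart 1, 0.55 without control heart 2 and 0.28 without knockout heart 3. Its Sox9, a transcription factor of cartilage and valve cells, was at 4.13, 4.53 and 4.38 CPM in controls and 8.09, 7.96 and 7.17 CPM in knockout hearts. That difference was larger than the spread within either group but did not pass over all genes (log2 fold change 0.83, edgeR adjusted p = 0.694).

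**Figure D5:**
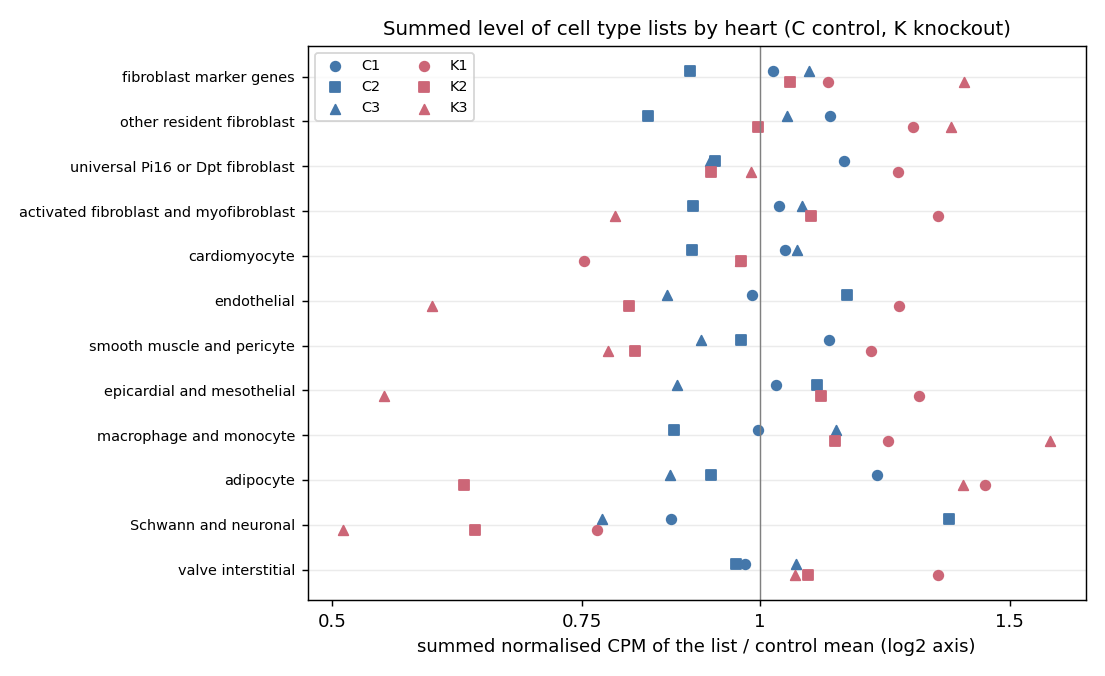
Summed normalised CPM of each cell type list in each heart divided by the control mean (x axis, log2 scale), with controls in blue, knockout hearts in red and heart numbers as symbols. Knockout heart 3 is highest in the fibroblast marker row, at 2226 CPM, and in the macrophage row, and lowest in the endothelial row, at 405 CPM.

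The genes whose profile over the 6 hearts was closest to the mean profile of the 10 markers were sought with the markers themselves left out. By root mean square distance on the log2 scale among 11578 other protein-coding genes, they were Cdc16 (0.03), a subunit of the anaphase-promoting complex, Copb1 (0.03), a coat protein of Golgi vesicles, Dll1 (0.04), a Notch ligand, Emp3 (0.04), a membrane protein, and Smarca5 (0.04), a chromatin remodeller. All 5 were lowest in control heart 2 and highest in knockout heart 3. Cdc16, for example, was at 11.0, 9.52 and 10.1 CPM in controls and 11.4, 10.3 and 14.5 CPM in knockout hearts. With so many genes ranked over only 6 hearts, this closeness does not show whether the markers share a profile of their own.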

How the data were processed

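RNA was measured in 3 control and 3 knockout hearts, 1 library each. Per the labels' protocols, cDNA of TRIzol-extracted RNA was primed with anchored oligo(dT) and tagmented. Per the submitters' processing notes, the build was mm39 and the tools were edgeR 4.0.16, featureCounts, Subread 2.1.1, STAR 2.7.11 and SAMtools 1.22.1; their roles are not stated. The annotation release and strand setting are not given in the sources used here. Estimated counts fill the deposited table, 21.3% to 22.7% of detected genes carrying a fraction of a read, and the authors' CPM, which equalled the count divided by its column's total, times 1000000.

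Counts were rounded and the 13717 genes that reached 1 CPM in 3 or more libraries were kept. They were tested with edgeR 4.0.16 (R 4.3.3) by the quasi-likelihood test with TMM factors, and p-values were Benjamini-Hochberg adjusted over all tested genes, two-sided, threshold 0.05. The adjustment gave many genes the same value, such as 0.694, so genes with an equal adjusted p can differ in unadjusted p. SEs came from the F statistic. Printed CPM are normalised by these factors, per 1000000 counts of the tested genes, unless called deposited. The fit had 4.68 prior degrees of freedom and a common biological coefficient of variation of 0.253. DESeq2 1.42.0 and limma 3.58.1 gave alternatives. All 3 tools were also run on simulated counts with large changes and no outlying library, which checks the code and not these comparisons. No within-group pair of libraries agreed within sampling noise (chi-square per degree of freedom 13.8 or more). Counts carry no molecular identifiers.

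The members and lists were chosen with earlier results of these data known, so no p was adjusted over a list. The plan named all members, up to 3 other genes of each pathway list by smallest p, genes at 0, the 5 closest profiles and Ybx1. For each cell type list it held only the sum and genes at 0. Loxl1, Serping1, Fap, Sfrp2, Ddah1, Myh6, Myh7, Ttn, Fabp4 and Sox9 were named outside this plan, by smallest p in their cell type lists. Further genes chosen outside the plan, after their values were seen, were Msln, Adipoq, Malat1, Gm10824, Aspn, Itga4, Tnc and cardiomyocyte genes other than Myh6, Myh7 and Ttn. Exon lengths and overlaps came from GENCODE M21 (GRCm38), matched by gene ID for 96.1% of tested genes. No coordinates were carried between builds.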

Additional observations from a re-analysis of the deposited data

How the results depend on the processing

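Under 15 alternatives no fibroblast marker gene passed the threshold, and Pdgfra, Dcn, Gsn, Mfap5 and Fn1 kept a log2 fold change above 0 in all of them. Pi16 and Ddr2, at -0.082 and -0.12, lay above 0 with library totals only (0.086 and 0.049), in limma-trend on log2(CPM + 0.5) (0.076 and 0.038) and on log2(CPM + 1) (0.073 and 0.037). Those 3 settings use no scaling factor between libraries. Leaving out 1 library at a time, Tcf21 ranged from -0.014 to 1.19, Lum from -0.049 to 0.92 and Dpt from -0.065 to 0.16. The log2 ratio of the summed level was 0.25, and 0.12 to 0.41 over the alternatives run for it. The count of genes past the threshold was 0 in the main fit, 133 without a filter, 15 in DESeq2, 1 in limma-trend on log2(CPM + 1) and 5 with the replicate block. It was 0 to 1 when a library was left out, the 1 without knockout library 3. The unadjusted count in the main fit was 705. No other gene of the pathway or cell type lists passed in any setting. Ybx1, at -2.40, passed without a filter (-2.38, edgeR adjusted p = 1.06e-12), in DESeq2 (-2.41, adjusted p = 2.05e-16), in limma-trend on log2(CPM + 1) (-2.28, adjusted p = 0.0487), with the replicate block (-2.44, edgeR adjusted p = 0.00424) and without knockout library 3. It ranged from -2.60 to -2.18 when a library was left out. The causes of these differences were not tested. Hearts share numbers across groups, but the numbers were taken beforehand as names only, so the main fit was unpaired. Deviations from the group means correlated at -0.11, 0.45 and 0.58 for numbers 1, 2 and 3 across genes. Between differently numbered hearts they correlated at -0.70 (control heart 2, knockout heart 3) to 0.57 (control heart 2, knockout heart 1). These correlations therefore cannot settle whether hearts were paired. Depth limits Tcf21 most, at 38 to 226 counts per library.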
